A study of Vitis amurensis with 6 samples.

Results

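Divergent gene pairs are neighbours on a chromosome that are read away from each other, so that both genes start at the same stretch of DNA between them. The pairs described here came from the gene coordinates in the deposited table of cold-treated callus of Vitis amurensis, the Amur grape, and the rule uses no measured value, though it was set with earlier results of these data known. Genes on chromosomes 1 to 19 were put in order of their lowest start. A pair was kept when the first gene was on the minus strand, the next on the plus strand, and 0 to 2000 bases lay between them. This gave 453 pairs with 906 genes, of 16645 genes in the table. The comparison set was 1327 convergent pairs at the same distance, in which the genes point at each other and share the DNA past their ends. A further 2155 tandem pairs, with both genes on the same strand, are given where they help to read a value.

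The stated aim of the series concerned the genes that act downstream of VaWRKY12 under cold. RNA was sequenced from 3 libraries of callus, a mass of unorganised plant cells in culture, that overexpresses VaWRKY12, and from 3 libraries of callus labelled EV, whose genotype label reads Envelope. Both kinds of callus were transformed from petiole segments, selected on kanamycin at 20 mg per litre and grown at 25 °C in darkness on solid B5 medium. At 15 days after transfer to new medium both were held at 4 °C for 24 hours, so every library was cold-treated and the design holds 1 comparison. The promoter that drives VaWRKY12 and the number of callus lines are not stated in the labels. Whether the 3 libraries of a group stem from separate cultures is not said in the labels, so the p-values measure the spread between these libraries, which may be technical.

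WRKY proteins are plant transcription factors that bind short W-box elements near their target genes, in either orientation, and are known for roles in defence and stress responses. A factor bound between 2 divergent genes lies upstream of both, and in several organisms some divergent neighbours are transcribed together from 1 bidirectional promoter, while others are controlled apart. Between convergent genes lie the ends of both transcripts, with no shared upstream region, which makes them a common comparison at equal distance. The files give identifiers with no gene names, so no function is given for any gene below. The row of VaWRKY12 was not identified, and the overexpression itself could not be checked. Identifiers of this form belong to gene models of Vitis vinifera, the wine grape, so the gene order is that of the models, not one measured in the Amur grape.

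The libraries held 8795632 to 14966502 reads on the genes of the table. VaWRKY12 replicate 3 stood apart from the other libraries of its group. Its log2 CPM values (CPM is counts per 1e6 reads) correlated across genes at 0.973 and 0.974 with VaWRKY12 replicates 1 and 2, while the value was 0.987 between replicates 1 and 2 and 0.980 to 0.986 among EV libraries. Over the 890 members that passed the filter on low counts the same values were 0.979 and 0.979, against 0.988 within VaWRKY12 replicates 1 and 2 and 0.984 to 0.988 among EV libraries. The counts of called members, the counts of divergent pairs with both genes called and the correlations of fold changes are also given without this library.

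Close divergent pairs were scarcer than close convergent pairs. The table held nearly equal numbers of each at any distance, 3490 divergent and 3495 convergent. Only 12.98% of the divergent pairs lay within 2000 bases, against 38.0% of the convergent pairs and 26.1% of the 8252 tandem pairs. The gaps run between coding regions, since the summed exon lengths in the table were multiples of 3 for 100% of genes. A divergent gap therefore lies on the side of both 5′ untranslated regions and promoters, and a convergent gap on the side of both 3′ untranslated regions. The shortest gaps are too short to hold these in full. The median gap was 931 bases in divergent and 1080 bases in convergent pairs. Gaps of 250 bases or fewer were found in 28 divergent and 50 convergent pairs, and the shortest divergent gap was 1 base. At the other end, the widest divergent gap inside the limit was 1993 bases, between GSVIVT01030484001 (log2 fold change -1.07) and GSVIVT01030485001 (-0.04). The next pair fell just outside it, with GSVIVT01016892001 (log2 fold change 0.09) beside GSVIVT01016893001 (0.04). Chromosome 8 held the most pairs, 47, which made 8.66% of its listed genes members. Chromosome 2 had the lowest share, with 7 pairs and 2.26% of its genes. Only genes listed in the table could be neighbours, so an unlisted gene may lie within a gap.

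The members resembled the table as a whole in structure. Their median coding length was 1041 bases and their median exon number 6, against 1080 bases and 6 exons over all genes and 1110 bases and 6 exons in convergent pairs. Single-exon genes made up 2.32% of members and 2.78% of all genes. Their level per coding length was slightly lower. The median of the authors' deposited RPKM (reads per coding length and library total), averaged over 6 libraries, was 20.0 among members, against 25.6 in convergent pairs and 23.03 over all genes. The members ran from 0.404 to 3060 RPKM. Reads counted as fractions occurred in 305 members (33.7%), in 33.6% of genes in convergent pairs and in 39.8% of all genes. In all, 254 members also belonged to a convergent pair on their other side, so those members enter both sides of the comparison.

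Partners in a divergent pair were little more alike in level than adjacent genes in general. Across the 437 pairs with both genes tested, the Spearman correlation between the log2 RPKM values of the 2 genes was 0.0928, against 0.00428 across 1284 convergent pairs and 0.189 across 2082 tandem pairs. The median distance between partners was 1.91 on the log2 RPKM scale in divergent and 1.96 in convergent pairs. Partners lay within 1 log2 unit of each other in 29.98% of divergent pairs and 25.5% of convergent pairs. Over all adjacent pairs at any distance the correlation was 0.0767, with 28.9% within 1 log2 unit. In the 27 divergent pairs with gaps up to 250 bases it was 0.250 (40.7% within 1 log2 unit), against -0.291 (26.5%) in 49 convergent pairs. In the next class, up to 500 bases, the divergent value was -0.102 over 62 pairs (27.4%). These are descriptions across pairs, which share libraries, and no test over pairs was made here or in the comparisons of shares and correlations that follow.

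A smaller share of the genes in divergent pairs was called between VaWRKY12 and EV callus than of all genes, a difference of shares that was not tested. Of the 890 members tested, 29 were higher and 39 lower in VaWRKY12 callus than in EV callus (edgeR quasi-likelihood test, Benjamini-Hochberg adjusted p under 0.05 over all genes tested), together 7.64%. The share over all 16317 tested genes was 11.9%, with 5.76% higher and 6.16% lower. Among members 3.26% were higher and 4.38% lower, so both directions were below the background. Scaled by library totals alone, 35 members were higher and 33 lower, so which direction held more members turned with the scaling. In convergent pairs 282 of 2610 genes were called (10.8%), and in tandem pairs 385 of 3878 (9.93%). The remaining 16 members had too few reads and were not tested. In bulk callus RNA a lower level cannot be told apart from fewer cells that express the gene.

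The called share of members was below that of all genes in each of 5 classes of level and in each of 13 alternative fits. With the tested genes in 5 classes of equal size by mean log2 CPM, 8.57%, 7.83%, 4.88%, 10.5% and 5.71% of members were called from the lowest to the highest class, against 11.2%, 11.7%, 11.5%, 12.6% and 12.7% of all genes. Tandem genes were also below all genes in every class, at 9.54%, 8.29%, 9.96%, 11.4% and 10.6%. Convergent genes gave 8.63%, 8.70%, 13.2%, 10.6% and 12.3%. Members were furthest below convergent genes in the classes with 4.88% and 5.71% of members called, and close to them in the others. Over all genes, weighted to the members' mix of these classes, the share was 11.9%. Among genes with whole reads in all libraries, 47 of 588 members (7.99%) were called, against 12.2% of all such genes. The median biological coefficient of variation was 0.128 among members and 0.132 over all genes, and the part of level and spread in the share was not tested. At an unadjusted p under 0.05, 20.1% of members and 26.1% of all genes passed. The VaWRKY12 and EV libraries did not overlap in 266 members (29.9%), near the 32.1% of all genes. The median absolute log2 fold change was 0.17 among members and 0.19 over all genes. In each of 13 alternative fits the called share of members was below that of all genes and below that of convergent genes. It ran from 3.47% to 7.62% with single libraries left out, against 6.05% to 11.9% of all genes in the same fits. The counts moved by over 1.5 times without 5 of the libraries, to 18 higher and 23 lower without VaWRKY12 replicate 1, 16 and 25 without VaWRKY12 replicate 2, 11 and 24 without EV replicate 1, 11 and 20 without EV replicate 2, and 15 and 25 without EV replicate 3. Without VaWRKY12 replicate 3 they were 27 and 42.

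The share of called genes was lowest in close divergent pairs. In divergent pairs 7.55% of genes with a gap up to 2000 bases were called, counted over pairs with both genes tested. It was 10.7% with gaps over 2000 and up to 5000 bases, 12.7% up to 10000 and 12.5% beyond that. Convergent genes gave 10.7%, 12.6%, 13.3% and 13.7% over the same distances, and tandem genes 10.01%, 11.8%, 13.4% and 13.8%. The divergent share was thus the lowest of the 3 orientations in every distance class, and the distance to the others was widest below 2000 bases. Within the divergent pairs the share was 9.26% for gaps up to 250 bases (54 genes), 8.06% for gaps up to 500, 6.25% up to 1000 and 8.09% up to 2000, each class starting where the one before it ends.

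**Figure D1:**
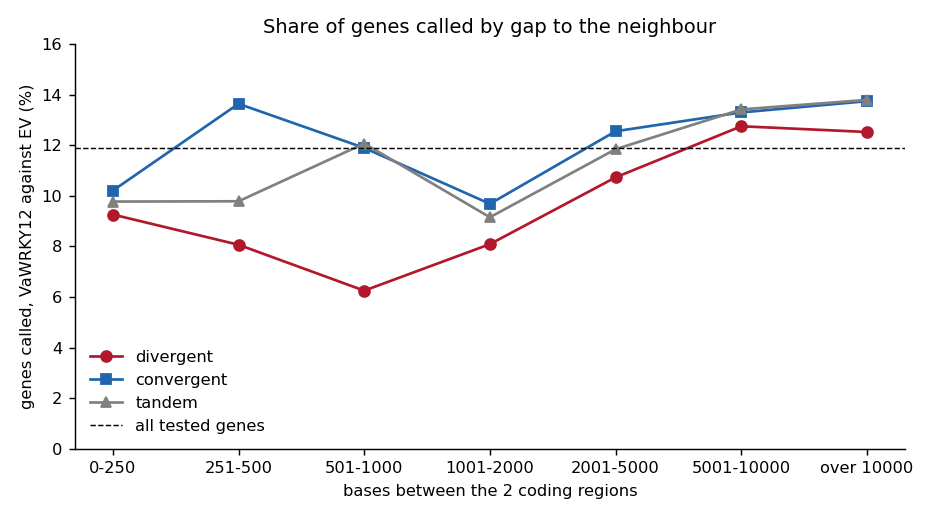
Share of tested genes called between VaWRKY12 and EV callus (y axis, percent) against the number of bases between the coding regions of neighbouring genes (x axis), for divergent, convergent and tandem pairs with both genes tested; the dashed line is the share over all tested genes. The divergent line lies lowest in the 4 classes up to 2000 bases, at 6.25% to 9.26%, and reaches 12.5% beyond 10000 bases.

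The called members were spread over the genome and over both strands. The 29 higher members lay on 14 chromosomes, 14 on the minus and 15 on the plus strand, with log2 fold changes of 0.31 to 2.39 and a median of 0.84. The 39 lower members also lay on 14 chromosomes, 20 on the minus and 19 on the plus strand, with log2 fold changes of -4.26 to -0.30 and a median of -0.66. A change of at least 1 on the log2 scale was reached by 10 higher and 12 lower members, 2.47% of those tested, against 5.39% of all tested genes. In all 68 called members the VaWRKY12 and EV libraries did not overlap. With 3 libraries per group this follows largely from the call itself, so it is no separate support.

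Joint change within a divergent pair was rare. Both genes were called in the same direction in 3 of 437 pairs (0.686%) and in opposite directions in 0, while 60 pairs held 1 called gene and 374 held none (edgeR). DESeq2 and limma-voom also called 0 in opposite directions. At an unadjusted p under 0.05 in both genes, 10 divergent pairs (2.29%) passed in the same direction and 10 (2.29%) in opposite directions. The counts were 32 (2.49%) and 42 (3.27%) in convergent pairs and 157 (7.54%) and 33 (1.59%) in tandem pairs, and the shares over all adjacent pairs were 5.24% and 2.86%. Over all adjacent pairs at any distance 1.62% changed jointly in the same direction and 0.470% in opposite directions, and over all orientations within 2000 bases 1.68% changed jointly in the same direction. The 1284 convergent pairs held 5 pairs changed in the same direction (0.389%) and 5 in opposite directions. Tandem pairs held 56 (2.69%) and 8. Such shares also depend on how many genes were called, 7.55% in these divergent pairs and 12.2% over all adjacent pairs. Among pairs with any called gene, both changed in the same direction in 3 of 63 divergent and 5 of 266 convergent pairs. It was 56 of 355 in tandem pairs and 238 of 3262 in adjacent pairs at any distance. The divergent count was 0 without VaWRKY12 replicate 1, VaWRKY12 replicate 2 or EV replicate 2, 1 without EV replicate 1 or EV replicate 3, and 4 without VaWRKY12 replicate 3, which also gave 1 pair of opposite direction, GSVIVT01032766001 and GSVIVT01032765001.

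The only pair with both genes higher lay on chromosome 8. GSVIVT01033985001 has 2 exons and runs on the minus strand from 16104932 to 16108051. It had 63.2, 54.4 and 74.3 CPM in VaWRKY12 libraries 1 to 3, against 45.8, 36.7 and 49.0 CPM in EV libraries 1 to 3. Its neighbour GSVIVT01033984001, with 2 exons on the plus strand from 16109450 to 16111349, had 18.1, 14.8 and 11.4 CPM in VaWRKY12, against 5.72, 7.82 and 7.89 CPM in EV. All VaWRKY12 libraries were above all EV libraries for both genes, but VaWRKY12 replicate 3 was the highest of its group for the first and the lowest for the second. The log2 fold changes were 0.55 (SE 0.148, edgeR adjusted p = 0.0496) and 1.06 (SE 0.216, edgeR adjusted p = 0.0180), across a gap of 1398 bases. The first was close to the threshold: its adjusted p in edgeR ran from 0.0736 to 0.139 without VaWRKY12 replicate 1, VaWRKY12 replicate 3 or any 1 EV library, was 0.0517 in limma-voom, and over 13 alternatives spanned 0.00881 to 0.139. The second missed the threshold without VaWRKY12 replicate 1, VaWRKY12 replicate 2 or EV replicate 1 (edgeR adjusted p 0.0530 to 0.0627).

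A pair on chromosome 8 with both genes lower had the shortest gap of the 3, 431 bases. GSVIVT01034126001, with 5 exons on the minus strand from 14993068 to 14998474, had 11.5, 12.3 and 14.6 CPM in VaWRKY12 libraries 1 to 3, against 17.6, 26.6 and 19.4 CPM in EV libraries 1 to 3. GSVIVT01034125001, with 2 exons on the plus strand from 14998906 to 15000064, had 6.99, 6.36 and 6.37 CPM in VaWRKY12, against 26.7, 28.5 and 19.9 CPM in EV. The groups did not overlap for either gene, and the plus-strand gene fell further. The log2 fold changes were -0.73 (SE 0.186, edgeR adjusted p = 0.0400) for the minus-strand gene and -1.92 (SE 0.170, edgeR adjusted p = 0.00159) for the plus-strand gene. The difference between them, plus-strand minus minus-strand gene, was -1.18 (SE 0.217, limma adjusted p = 0.00886), so this pair fell jointly and unequally. The larger fall was called in each of 13 alternatives. The smaller one missed the threshold without VaWRKY12 replicate 1, VaWRKY12 replicate 2, EV replicate 2 or EV replicate 3 (edgeR adjusted p 0.0776 to 0.119).

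The other pair with both genes lower lay on chromosome 3, with a gap of 910 bases, and fell evenly. GSVIVT01031962001, with 9 exons on the minus strand from 5739102 to 5760245, had 8.61, 10.3 and 10.1 CPM in VaWRKY12 libraries 1 to 3, against 15.3, 17.99 and 12.9 CPM in EV libraries 1 to 3. GSVIVT01031963001, with 2 exons on the plus strand from 5761156 to 5767315, had 19.2, 19.7 and 20.2 CPM in VaWRKY12, against 35.2, 33.7 and 31.3 CPM in EV. Again no VaWRKY12 library reached an EV library. The log2 fold changes were -0.68 (SE 0.168, edgeR adjusted p = 0.0359) and -0.76 (SE 0.101, edgeR adjusted p = 0.00397). Their difference was -0.10 (SE 0.181, limma adjusted p = 0.775). The fall of the plus-strand gene was called in each of 13 alternatives, and that of the minus-strand gene was lost without VaWRKY12 replicate 1, VaWRKY12 replicate 2, EV replicate 1 or EV replicate 2 (edgeR adjusted p 0.0754 to 0.129). All 6 genes of these 3 pairs had whole reads in every library.

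**Figure D2:**
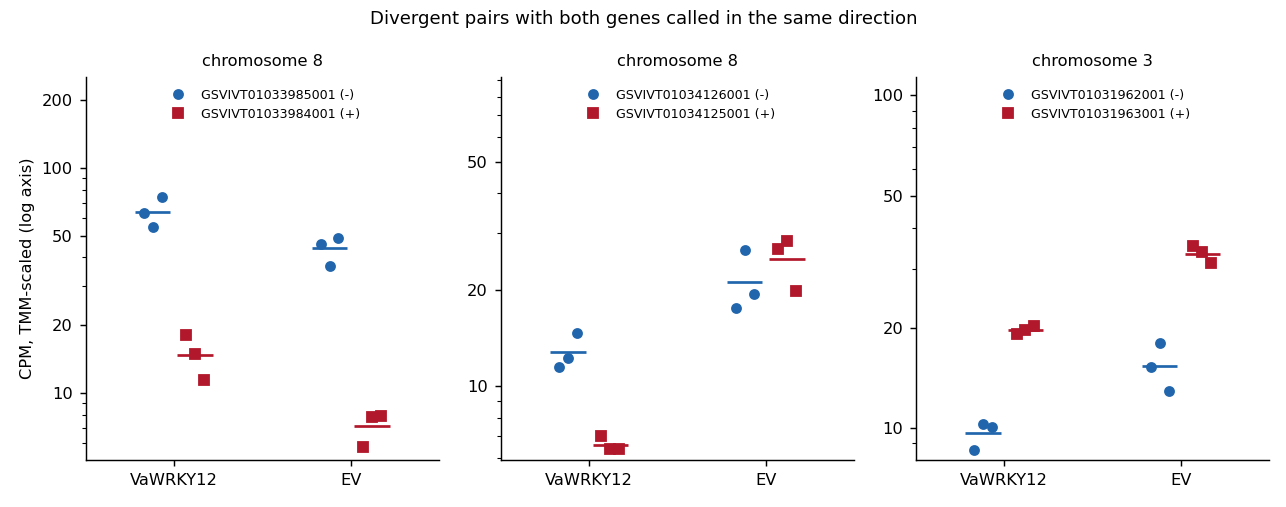
TMM-scaled CPM (log axis) of both genes of the 3 divergent pairs called in the same direction, in 3 VaWRKY12 and 3 EV libraries; points are libraries, lines are group means, circles are the minus-strand and squares the plus-strand gene. The groups do not overlap for any of the 6 genes, and in the middle panel the plus-strand gene is at 6.36 to 6.99 CPM in VaWRKY12 and at 19.9 to 28.5 CPM in EV.

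In 60 of the 63 divergent pairs with a called gene and a tested partner, the partner was not called. An uncalled partner was as common elsewhere: 256 of 266 such convergent pairs, 291 of 355 tandem pairs and 2955 of 3262 adjacent pairs at any distance. The divergent count alone therefore does not set these pairs apart. The 66 called genes with a tested partner had partners whose log2 fold change, taken in the direction of the called gene, had a median of 0.02, and 37 of the partners (56.1%) had the same sign. For convergent pairs the median was -0.04 and 121 of 276 partners (43.8%) had the same sign. For tandem pairs it was 0.22 and 69.5%. Over all adjacent pairs at any distance it was 0.06 and 58.2%.

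The largest fall among members was of this kind. GSVIVT01025829001, a minus-strand gene with 3 exons at 11430916 to 11432138 on chromosome 8, had 2, 7 and 1 reads in VaWRKY12 libraries 1 to 3, against 49, 96 and 35 reads in EV libraries 1 to 3. Scaled, these were 0.129, 0.742 and 0.112 CPM in VaWRKY12, against 4.84, 9.04 and 4.00 CPM in EV. The log2 fold change was -4.26, with an SE of 0.615 and an edgeR adjusted p of 0.00511, and was called in each of 12 alternatives that tested it. The 3 reads taken as the floor stand for 0.194 to 0.343 CPM, so VaWRKY12 replicates 1 and 3 lay below the floor and the size of the fall is loosely fixed. Its partner GSVIVT01025828001, 1561 bases away on the plus strand, had 12.1, 10.4 and 10.95 CPM in VaWRKY12, against 10.1, 13.4 and 10.3 CPM in EV (log2 fold change -0.01, SE 0.165, edgeR adjusted p = 0.979). The groups overlapped for the partner, and the difference in change between the genes was 3.69 on the log2 scale (SE 0.514, limma adjusted p = 0.00313).

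On chromosome 3 a pair with a gap of 879 bases split in the same way. GSVIVT01023846001, with 3 exons on the plus strand from 3025509 to 3027713, had 33.1, 26.5 and 12.4 CPM in VaWRKY12 libraries 1 to 3, against 64.3, 62.4 and 47.9 CPM in EV libraries 1 to 3. Its log2 fold change was -1.26 (edgeR adjusted p = 0.0318), and VaWRKY12 replicate 3 was the lowest library. GSVIVT01023847001, on the minus strand from 3009025 to 3024629, had 9.13, 9.65 and 8.38 CPM in VaWRKY12, against 9.18, 9.61 and 8.69 CPM in EV (log2 fold change -0.02, SE 0.148, edgeR adjusted p = 0.958). The partner overlapped between groups, with means of 9.05 ± 0.635 CPM in VaWRKY12 and 9.16 ± 0.461 CPM in EV (SD, n = 3 each). The fall was not called without VaWRKY12 replicate 2 or any 1 EV library (edgeR adjusted p 0.0562 to 0.0985).

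A rise beside a steady partner was found on chromosome 14, with a gap of 1728 bases. GSVIVT01031226001, with 4 exons on the minus strand from 1047271 to 1048773, had 27.1, 32.4 and 44.9 CPM in VaWRKY12 libraries 1 to 3, against 22.5, 18.8 and 11.7 CPM in EV libraries 1 to 3 (log2 fold change 0.97, SE 0.260, edgeR adjusted p = 0.0481). Its partner GSVIVT01031225001, with 16 exons on the plus strand from 1050502 to 1057005, averaged 10.2 ± 0.781 CPM in VaWRKY12 and 10.2 ± 0.972 CPM in EV (SD, n = 3 each). Both genes had fractions of reads. The rise passed in 4 of 12 alternatives that tested it, with an adjusted p of 0.0577 to 0.109 in edgeR without VaWRKY12 replicate 2, VaWRKY12 replicate 3 or any 1 EV library, and 0.0601 with the replicate number as a block.

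The pairs with the largest changes beyond these were picked after their values were seen, under the same limits on reads (a mean of 50 or more where higher) and on overlap. GSVIVT01033332001 on chromosome 8, with 12 exons on the minus strand from 21399874 to 21404246, rose to 41.4, 27.9 and 31.2 CPM in VaWRKY12, against 9.38, 7.63 and 7.32 CPM in EV (log2 fold change 2.05, SE 0.186, edgeR adjusted p = 0.00161). It was called in each of 12 alternatives that tested it. Its partner GSVIVT01033331001, 903 bases away, had 6.34, 7.42 and 7.15 CPM in VaWRKY12, against 5.92, 4.99 and 5.83 CPM in EV (log2 fold change 0.32, edgeR adjusted p = 0.319). The groups did not overlap for the partner either, but it did not pass the test.

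The next rises were those of GSVIVT01013913001, GSVIVT01020530001 and GSVIVT01025924001. GSVIVT01013913001, a single-exon plus-strand gene at 6676172 to 6677005 on chromosome 16, had 6.15, 3.07 and 9.84 CPM in VaWRKY12, against 1.68, 1.70 and 1.37 CPM in EV (log2 fold change 1.99, SE 0.427, edgeR adjusted p = 0.0214). GSVIVT01020530001, with 4 exons on the plus strand of chromosome 12, had 6.21, 5.09 and 6.04 CPM in VaWRKY12, against 2.27, 1.70 and 2.97 CPM in EV (log2 fold change 1.33, SE 0.260, edgeR adjusted p = 0.0153). GSVIVT01025924001, with 6 exons on the minus strand of chromosome 18, had 29.5, 12.2 and 21.9 CPM in VaWRKY12, against 10.4, 5.84 and 9.83 CPM in EV (log2 fold change 1.30, SE 0.337, edgeR adjusted p = 0.0421). GSVIVT01013913001 missed the threshold without VaWRKY12 replicate 1 or any 1 EV library (edgeR adjusted p 0.0507 to 0.0767), and GSVIVT01020530001 without VaWRKY12 replicate 1, EV replicate 1 or EV replicate 2 (0.0502 to 0.0567). GSVIVT01025924001 missed it without VaWRKY12 replicate 1, VaWRKY12 replicate 3 or any 1 EV library (edgeR adjusted p 0.0682 to 0.125). Their partners GSVIVT01013912001, GSVIVT01020531001 and GSVIVT01025923001 had log2 fold changes of 0.20, -0.25 and 0.25, none of which passed (edgeR adjusted p 0.0926 to 0.255), although the groups did not overlap for any of the 3 partners.

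Large falls also occurred at short gaps where the partner was not called or, at 40 bases, could not be tested. On chromosome 19 GSVIVT01014551001, with 14 exons on the minus strand from 5057354 to 5064335, fell to 10, 8 and 1 reads in VaWRKY12 libraries 1 to 3, against 85, 95 and 43 reads in EV libraries 1 to 3 (log2 fold change -3.72, SE 0.468, edgeR adjusted p = 0.00328). Its partner GSVIVT01014552001, 351 bases away, averaged 90.9 ± 14.7 CPM in VaWRKY12 and 83.0 ± 7.79 CPM in EV (SD, n = 3 each; log2 fold change 0.13, edgeR adjusted p = 0.588). The groups overlapped for the partner. Also on chromosome 19, GSVIVT01014737001, with 3 exons on the plus strand from 9082908 to 9084670, fell to 3.43, 3.60 and 0.894 CPM in VaWRKY12, against 28.6, 19.1 and 18.7 CPM in EV (log2 fold change -3.02, SE 0.385, edgeR adjusted p = 0.00346). GSVIVT01014736001 lay only 65 bases away and had 3.37, 2.01 and 1.79 CPM in VaWRKY12, against 2.47, 3.01 and 3.66 CPM in EV (log2 fold change -0.31, SE 0.321, edgeR adjusted p = 0.605). With 16 to 52 reads per library, a smaller fall of this partner could have gone uncalled. The difference in change was 3.65 (SE 0.565, limma adjusted p = 0.00460) for the first of these pairs and -2.80 (SE 0.466, limma adjusted p = 0.00610) for the second. On chromosome 17 GSVIVT01008665001 fell to 20, 30 and 12 reads in VaWRKY12, against 279, 268 and 89 reads in EV (log2 fold change -3.48, SE 0.471, edgeR adjusted p = 0.00416), while its partner GSVIVT01008666001, 40 bases away, had 11, 14 and 2 reads in VaWRKY12, against 9, 15 and 8 reads in EV, too few to be tested. The falls of GSVIVT01014551001, GSVIVT01014737001 and GSVIVT01008665001 were called in every alternative that tested them (12, 13 and 13).

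**Figure D3:**
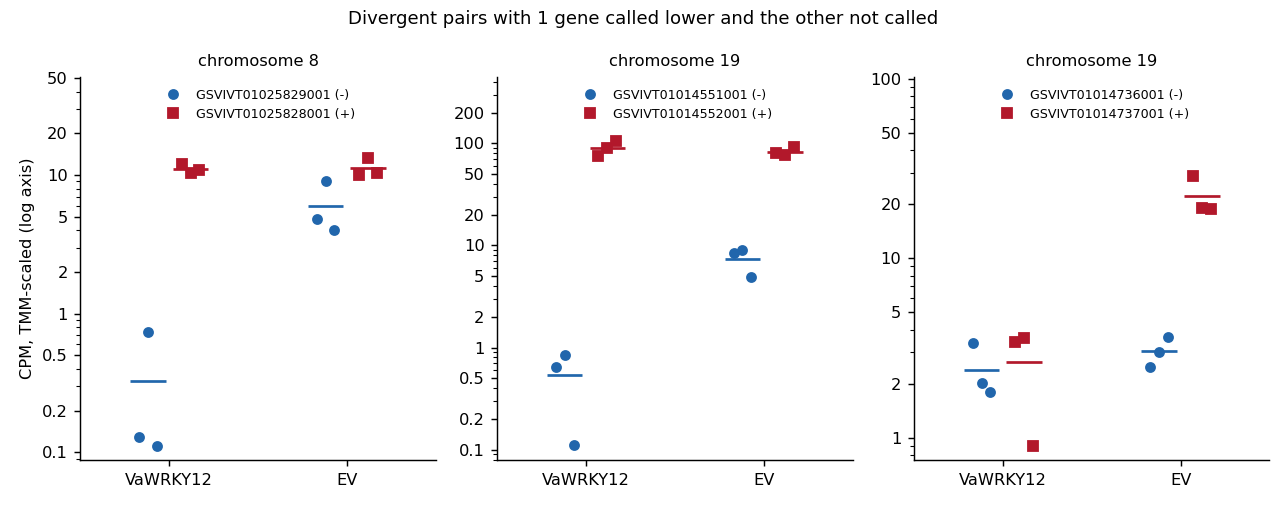
TMM-scaled CPM (log axis) of both genes of the 3 divergent pairs that hold the largest falls with a tested partner, in 3 VaWRKY12 and 3 EV libraries; points are libraries, lines are group means, circles are the minus-strand and squares the plus-strand gene. One gene of each pair is lower in all VaWRKY12 libraries, and for the other gene the groups overlap.

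The most abundant pair, ranked by the lower RPKM of its genes, moved in unequal ways. On chromosome 18 GSVIVT01008708001, with 11 exons on the minus strand from 1358341 to 1363753, had 402, 439 and 459 CPM in VaWRKY12 libraries 1 to 3, against 395, 382 and 406 CPM in EV libraries 1 to 3 (log2 fold change 0.14, SE 0.0888, edgeR adjusted p = 0.386). GSVIVT01008709001, with 11 exons on the plus strand from 1365574 to 1370439, had 196, 210 and 199 CPM in VaWRKY12, against 277, 257 and 254 CPM in EV (log2 fold change -0.38, SE 0.0810, edgeR adjusted p = 0.0206). The plus-strand gene fell while the groups of the minus-strand gene overlapped, and the difference of -0.51 (SE 0.110, limma adjusted p = 0.0161) was the smallest called in any divergent pair. Both genes had fractions of reads. The fall missed the threshold without VaWRKY12 replicate 1, VaWRKY12 replicate 2 or any 1 EV library (edgeR adjusted p 0.0598 to 0.0744).

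The pair with the shortest gap, 1 base between coding regions on chromosome 3, held genes at different levels, and neither was called. GSVIVT01037860001 had 35.3, 30.1 and 30.5 CPM in VaWRKY12, against 34.2, 31.6 and 33.8 CPM in EV (log2 fold change -0.05, edgeR adjusted p = 0.814). GSVIVT01037859001 had 3.37, 2.54 and 3.24 CPM in VaWRKY12, against 3.65, 3.49 and 3.43 CPM in EV (log2 fold change -0.20, edgeR adjusted p = 0.641), with each VaWRKY12 library below each EV library. Per coding length they stood at 21.2 and 5.15 RPKM in VaWRKY12 and at 21.6 and 5.85 RPKM in EV (authors' deposited RPKM).

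Joint change in opposite directions was called in 5 of 1284 convergent pairs and in 0 of 437 divergent pairs, counts too small to set the orientations apart. At an unadjusted p under 0.05 in both genes (edgeR), such pairs were found in both orientations, 3.27% of convergent and 2.29% of divergent pairs. GSVIVT01013167001 and GSVIVT01013166001 on chromosome 2, with 533 bases between them, changed in opposite directions. The first had 34.9, 37.7 and 27.8 CPM in VaWRKY12, against 93.0, 78.9 and 62.1 CPM in EV (log2 fold change -1.22, edgeR adjusted p = 0.00456). The second had 50.8, 44.3 and 34.4 CPM in VaWRKY12, against 29.6, 24.7 and 21.4 CPM in EV (log2 fold change 0.78, edgeR adjusted p = 0.0241). The call of the second was lost without VaWRKY12 replicate 1, VaWRKY12 replicate 2, EV replicate 2 or EV replicate 3 (edgeR adjusted p 0.0710 to 0.0843). GSVIVT01011750001 and GSVIVT01011749001 on chromosome 1 were both lower (log2 fold changes -0.89 and -1.19, edgeR adjusted p 0.0482 and 0.00216), and GSVIVT01011007001 and GSVIVT01011006001 on chromosome 7 both higher (0.34 and 0.78, edgeR adjusted p 0.0495 and 0.0264). GSVIVT01011750001 and GSVIVT01011007001 each lost their call in 8 of 12 alternatives, with limma-voom and without any 1 VaWRKY12 library among them, and GSVIVT01011006001 in 4 of 13.

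A test on each pair asked whether its genes changed unequally, with libraries as replicates. It compared the log2 CPM difference between the genes in VaWRKY12 and in EV libraries (limma, adjusted over 14673 adjacent pairs). Unequal change was called in 37 of 437 divergent pairs (8.47%), against 14.5% of all adjacent pairs, 195 of 1284 convergent pairs (15.2%) and 157 of 2082 tandem pairs (7.54%). In 31 of the 37 at least 1 gene was called on its own. The median absolute difference was 0.25 on the log2 scale over divergent pairs and 0.31 over convergent pairs. In a second test, on the summed reads of both genes (edgeR, adjusted over the same pairs), 13 divergent pairs were higher and 25 lower in VaWRKY12, 8.70% together, against 13.8% of all adjacent pairs and 12.7% of convergent pairs. In 5 of these 38 pairs neither gene was called alone. A smaller share of divergent than of convergent pairs was thus called in both tests. The count of unequal divergent pairs was 21, 19 and 22 without EV replicates 1, 2 and 3. The count from summed reads was 17, 15 and 22 without those libraries, 22 without VaWRKY12 replicate 1 and 21 without VaWRKY12 replicate 2.

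Across pairs, the changes of divergent neighbours were close to unrelated. The Spearman correlation between the log2 fold changes of the 2 genes was 0.0413 over 437 divergent pairs and -0.0158 over 1284 convergent pairs, against 0.292 over 2082 tandem pairs. With single libraries left out it ran from 0.0270 (without VaWRKY12 replicate 3) to 0.0652 (without EV replicate 1) in divergent pairs. In convergent pairs it was -0.0237 without VaWRKY12 replicate 3 and ran from -0.0275 (without EV replicate 2) to -0.00319 (without EV replicate 1). The fold changes shared a sign in 224 divergent pairs (51.3%), 641 convergent pairs (49.9%) and 1234 tandem pairs (59.3%). Taking each VaWRKY12 library against the mean of EV, the Spearman correlation in divergent pairs was 0.0136, 0.0340 and 0.0698 for VaWRKY12 replicates 1, 2 and 3, and in convergent pairs -0.00948, -0.0282 and -0.00162. The divergent value was above the convergent one in all 3, with an SD over the 3 libraries of 0.0284 for divergent and 0.0137 for convergent pairs. Over all adjacent pairs at any distance, which include tandem pairs, they were 0.105, 0.0988 and 0.110, above both. For the fitted log2 fold changes the value over all adjacent pairs was 0.109. All these values share the EV libraries. Among the 208 divergent pairs with whole reads in both genes the Spearman correlation was 0.0562, against -0.0434 in 567 such convergent pairs. Restricted to pairs that share no gene with a pair of the other orientation, it was 0.102 and 0.00014.

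In divergent pairs the Spearman correlation did not rise steadily toward shorter gaps. The Spearman correlation was -0.146 over 27 divergent pairs with gaps up to 250 bases, 0.0406 over 62 pairs with gaps up to 500, 0.156 over 144 pairs up to 1000 and 0.000445 over 204 pairs up to 2000 bases. In the next class, up to 5000 bases, it was 0.104 over 508 pairs, then 0.00891 over 655 pairs up to 10000 bases and 0.0737 over 1769 pairs beyond that. These values lie on both sides of the 0.0413 for close pairs. Convergent pairs stayed between -0.0988 and 0.0375 at all distances. Tandem pairs gave 0.647, 0.412, 0.271 and 0.129 in the 4 classes up to 2000 bases.

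**Figure D4:**
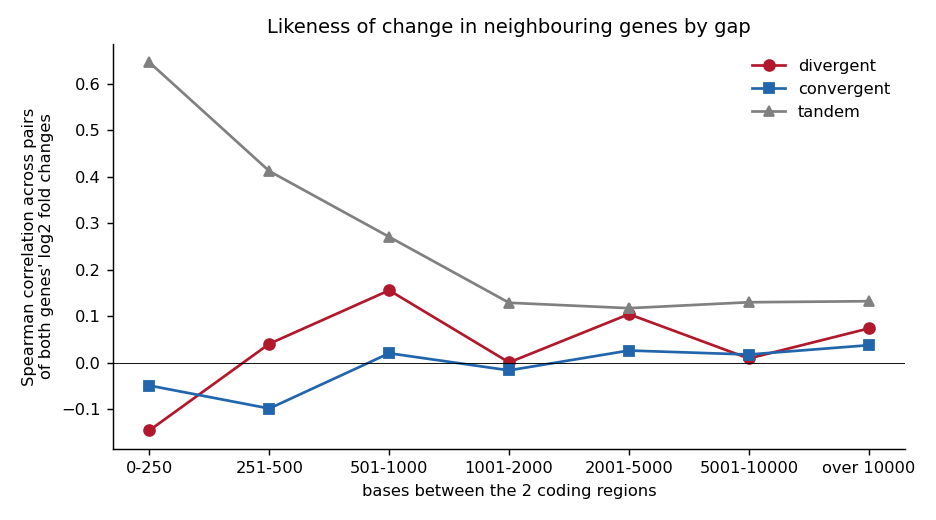
Spearman correlation across pairs between the log2 fold changes (VaWRKY12 over EV) of neighbouring genes (y axis) against the number of bases between their coding regions (x axis), for divergent, convergent and tandem pairs. Divergent and convergent pairs lie between -0.146 and 0.156 in every class, and tandem pairs start at 0.647.

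**Figure D5:**
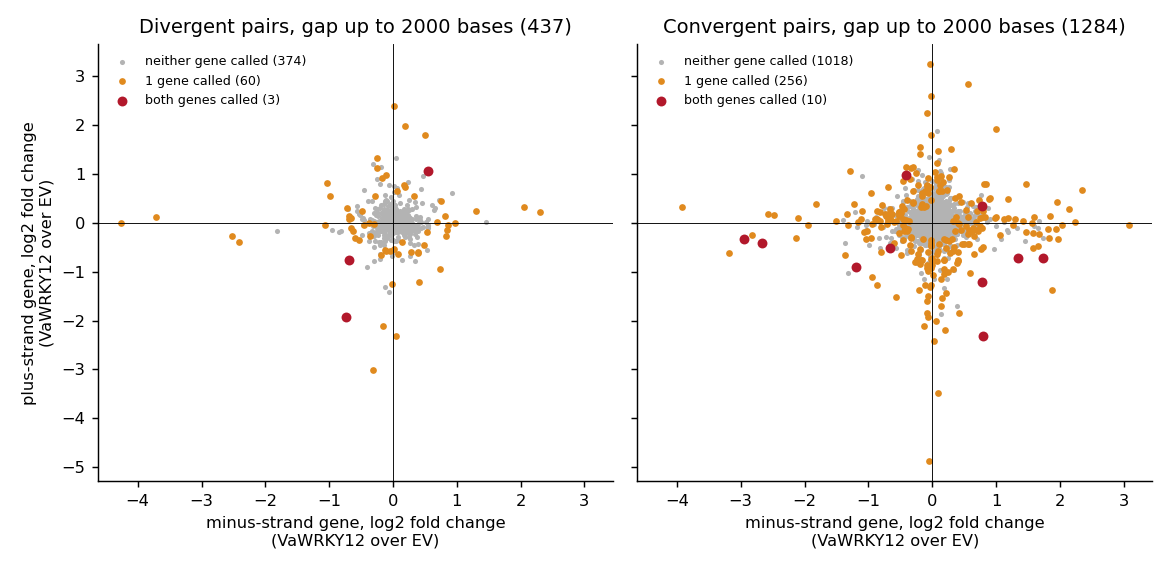
Log2 fold change (VaWRKY12 over EV) of the plus-strand gene (y axis) against that of the minus-strand gene (x axis) for 437 divergent and 1284 convergent pairs with both genes tested; colours mark whether neither, 1 or both genes were called. In 60 divergent pairs 1 gene was called, with partners on both sides of 0, and the 3 divergent pairs with both genes called all lie in quadrants of shared direction.

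Co-expression was then read without the difference between genotypes, as each gene's deviation from the mean of its own group. Within a library, the Spearman correlation across divergent pairs between the deviations of the 2 genes was 0.0678, -0.0336 and 0.0126 in VaWRKY12 replicates 1, 2 and 3 and 0.0212, 0.0540 and 0.0455 in EV replicates 1, 2 and 3. For convergent pairs the values were 0.0448, 0.0219 and 0.000677 in VaWRKY12 and -0.00229, 0.0470 and -0.0610 in EV. The divergent value was the higher in 5 of 6 libraries, by small amounts, and the ranges of the 2 orientations overlapped. Tandem pairs gave 0.0994 to 0.237. All adjacent pairs at any distance, which include tandem pairs, gave 0.0483 to 0.0820, above the divergent value in each library. Pair by pair, the median correlation of the deviations over 6 libraries was 0.0578 in divergent pairs, of which 54.0% were above 0, and 0.0146 in convergent pairs, of which 51.0% were above 0. It was 0.206 in tandem pairs and 0.0836 over all adjacent pairs at any distance, of which 54.2% were above 0. The divergent median was thus below that over all adjacent pairs, which include tandem pairs, while the shares above 0 were nearly equal. For gaps up to 5000, up to 10000 and beyond 10000 bases, divergent pairs gave medians of 0.0744, 0.0394 and 0.0490. Convergent pairs gave 0.00715, 0.0856 and 0.0700 at those distances, so 0.0578 lay within the range of pairs on opposite strands. Deviations of 3 libraries around their mean are not independent, and the pairs of a library share its depth and composition.

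The authors' deposited table, which gives the authors' own log2 fold changes and false discovery rates, calls 29 members higher and 38 lower with the same limit of 0.05. The overlap was 64 members called in the same direction here and 0 in the opposite direction. The authors' deposited table also calls both genes in the same direction in 3 divergent pairs and in opposite directions in 0.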

How the data were processed

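The deposited table gives reads per gene and library under a header that reads Reads, treated as an expected count, not normalised, per the file headers and the values. Some reads are fractions, whose origin is not stated. The authors' deposited RPKM values were used for levels per coding length. The authors' deposited table also holds log2 fold changes, a score (the F statistic), p-values and false discovery rates. The submitters' processing notes list the tools Trimmomatic, HISAT2 2.0.5 and edgeR. For the counter, strand use, genome build and annotation, nothing is given in the sources used here. Whether reads of overlapping antisense genes were kept apart is therefore not known.

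Reads were rounded, filtered (filterByExpr, minimum count 10), TMM-scaled and tested in edgeR 4.0.16 under R 4.3.3 (two-sided quasi-likelihood test, VaWRKY12 over EV, no covariate), with Benjamini-Hochberg adjustment over all 16317 genes tested and calls at 0.05. Standard errors come from the F statistic. Pair differences used log2 CPM (prior count 2) in limma 3.58.1. DESeq2 1.42.0 and limma-voom were alternatives. Whole reads were judged at a tolerance of 1e-06. Library totals, 8795632 to 14966502 reads, limit precision for low genes; floors of 3 reads cover counting error only. The tests were checked on simulated data.

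Named pairs follow a rule: joint changes ranked by the smaller change, up to 3 pairs with 1 called gene and a partner within 0.1 of no change, the most abundant and the closest pair, and 1 convergent pair of each kind. The members, lists and rules were chosen with earlier results of these data known.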

Additional observations from a re-analysis of the deposited data

How the results depend on the processing

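With single libraries left out, members called higher ran from 11 to 27 and lower from 20 to 42. Divergent pairs changed in the same direction ran from 0 to 4 and in opposite directions from 0 to 1, and convergent pairs from 0 to 5 and from 1 to 6. Divergent pairs with unequal change ran from 19 to 37 and convergent pairs from 99 to 187; by summed reads the ranges were 15 to 35 and 63 to 173. Convergent pairs of the same direction numbered 9 in DESeq2, 3 in limma-voom and 8 with no filter, and those of opposite direction 9 in DESeq2, 9 with the replicate block and 3 with a mean of at least 50 counts, which also left 23 divergent pairs with unequal change. With only whole-count genes, which leaves fewer to test, 19 members were higher, 1 convergent pair changed in the same and 1 in the opposite direction, the Spearman correlation of convergent fold changes was -0.0433, unequal change was called in 18 divergent and 99 convergent pairs, and summed reads in 19 and 74. Requiring a log2 change of at least 1 left, by construction, 10 higher and 12 lower members and 0 joint pairs of any kind. With gaps up to 1000 bases, the correlation of divergent fold changes was 0.0731 and 3 convergent pairs were opposite. Up to 500 bases, the correlation was -0.0412 in divergent and -0.0838 in convergent pairs, with 1 divergent and 1 convergent pair of the same direction and 1 convergent pair of opposite direction. Without pairs that share a gene with the other orientation, the correlation was 0.102 and 0.00014, 1 divergent pair changed jointly and 3 convergent pairs were opposite. For these values of the correlation the cause was not tested. The fits of unequal change and summed reads at 50 counts or whole counts, and the others of summed reads, were chosen after seeing the data. The motif search and gene lists were not run, for lack of a genome and of gene names.

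Deviations of same-numbered libraries correlated at -0.0630, 0.325 and 0.175, and 1 of 3 numbers matched best with itself. With so few libraries, whose deviations are not independent, this cannot decide whether same-numbered libraries were paired. The libraries were treated as unpaired because the labels name no pairing. With the replicate number as a block the members' called share was 7.98%, against 13.8% of all genes. No named gene that was called changed sign in any alternative.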

Other observations

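Leaving out VaWRKY12 replicate 3 brought out 2 divergent pairs on chromosome 11 as jointly higher, noticed after their values were seen. GSVIVT01032217001, on the minus strand from 13087776 to 13105562, had 56.5, 26 and 0 reads in VaWRKY12 libraries 1 to 3, against 3, 1 and 0 reads in EV libraries 1 to 3. Its partner GSVIVT01032218001, on the plus strand 709 bases away, had 131, 88.8 and 6 reads in VaWRKY12, against 7.5, 13.8 and 14.5 reads in EV. VaWRKY12 replicate 3 was the lowest VaWRKY12 library for both genes. With all 6 libraries the first gene had too few reads to be tested and the second gave 2.35 on the log2 scale (edgeR adjusted p = 0.0945). Without VaWRKY12 replicate 3 they gave 4.46 (edgeR adjusted p = 0.00501) and 2.86 (edgeR adjusted p = 0.00222). Both genes have fractions of reads.

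GSVIVT01015467001 and GSVIVT01015468001, the other pair, have whole reads. The first had 43.4, 36.9 and 33.0 CPM in VaWRKY12, against 24.0, 28.7 and 29.0 CPM in EV, and the second 3.82, 3.07 and 1.68 CPM in VaWRKY12, against 1.48, 1.41 and 1.60 CPM in EV. With all 6 libraries neither passed (edgeR adjusted p 0.0567 and 0.126), though the groups did not overlap for either gene.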
